A study of Mus musculus with 18 samples.

Results

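A2C12 is a mouse lung carcinoma line that transformed spontaneously, and its SP and non-SP cells were compared here on 6 expression arrays out of the 18 arrays of 3 lines. The 6 arrays were those whose title starts with A2C12: 3 of SP cells and 3 of non-SP cells, each SP array set against the non-SP array of the same replicate number. Per the labels, the line came from lung tumours of 8-month-old mice that were double transgenic, with c-myc as 1 of the transgenes, so SP and non-SP cells share the same transgenes. The promoters that drive the transgenes are not given in the sources used here. The cells grew in DMEM with fetal calf serum, and 10 µg of biotin-labelled cRNA was made from 200 ng of total RNA of each sample. The arrays of number 1 carry a 4 in the fraction part of their titles. The labels do not say whether the 3 numbers were separate cultures, sorts or hybridizations, so p-values measure the spread between these samples, which may be technical. The series' design states that the comparison was made to find genes that differ between SP and non-SP cells.

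The side population (SP) is the fraction of cells that keeps little of a DNA-binding Hoechst dye, because ABC transporters in the cell membrane pump it out. Abcg2, a transporter that works as a dimer, and Abcb1a and Abcb1b, the mouse multidrug transporters, are the pumps best known for this, and SP cells have been studied in tumours as a fraction that may hold progenitor-like, drug-tolerant cells. Non-SP cells are the cells outside that fraction, so each pair of arrays compares fractions of 1 line.

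Each array gave a log2 signal for every probe set, and a difference of 1 is a 2-fold difference on the linear scale. Array medians lay between 5.80 and 6.06. Every gene was represented by its brightest probe set over the 6 arrays, and 10916 genes were left after the 40% with the lowest mean were removed. Signals of different probe sets are not compared with each other, and the number of arrays limits the precision. RNA from a fraction of cells is a mixture, so fewer cells of a type and less RNA per cell cannot be told apart.

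The filter, which keeps 60% of the 18193 genes, let through 2 of 12 markers of club and ciliated airway cells. Of 17 fibroblast and stromal markers with a probe set, 12 (70.6%) passed, near the share of all genes, among them Vim, the intermediate filament of mesenchymal cells, at 13.91, 14.03 and 14.13 in the non-SP arrays and 14.01, 14.00 and 14.19 in the SP arrays. Of 17 epithelial junction genes, 8 (47.1%) passed, including Krt19, a keratin of simple epithelia, with 11.51, 12.07 and 11.38 in non-SP and 11.43, 12.42 and 11.43 in SP cells. The secretory club cell gene Scgb1a1 and the alveolar type II genes Sftpc and Nkx2-1 were among the genes left out. The leukocyte marker Ptprc and the endothelial markers Pecam1 and Cdh5 were left out too. Of 13 leukocyte markers with a probe set, however, 8 (61.5%) passed, near the share of all genes. The highest was Csf1r, with a mean of 10.11 over the 6 arrays. Of 12 endothelial markers, 3 (25.0%) passed. The labelled lung tumour origin was thus not visible in these defining airway and type II genes, while 8 of 12 type II markers with a probe set (66.7%), such as the lipid transporter Abca3, passed.

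No gene passed the threshold between SP and non-SP cells. The paired limma fit called 0 of 10916 genes (0.0%) at a Benjamini-Hochberg adjusted p under 0.05, and its smallest adjusted p was 0.972. At an unadjusted p under 0.05 it held 363 genes (3.33%), 168 higher (1.54%) and 195 lower (1.79%) in SP cells. The median standard error of a gene's difference was 0.09 and the median half-width of its 95% interval was 0.22, and the largest mean difference of any gene was 0.89 in size. SP was above non-SP in 3 of 3 pairs for 1320 genes (12.1%) and below it in 3 of 3 for 1409 (12.9%). All 3 SP arrays lay above all 3 non-SP arrays for 128 genes (1.17%) and below them for 171 (1.57%). With 3 pairs, an exact sign-flip test of a single gene cannot give a two-sided p below 0.25.

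The number of the replicate took a larger part of the variation than the sort. Over all genes, 75.6% of the sum of squares lay between the pairs, 6.76% between SP and non-SP, and 17.6% in the rest. These shares are not divided by degrees of freedom, of which the sort has the fewest. The 6.76% includes noise and is not the variation due to the sort alone. The SP minus non-SP differences of pair 1 ran against those of pair 2: across the 10916 genes their Pearson correlation was -0.40, and 36.5% of genes had the same direction in both. The correlation was 0.01 between pairs 1 and 3, with 50.4% of genes alike in direction, and 0.36 between pairs 2 and 3, with 61.2%. These are correlations across genes of 2 arrays each, and genes are not independent replicates. The differences spread most in pair 1, with an SD of 0.25 over genes, then 0.23 in pair 2 and 0.14 in pair 3. Arrays of the same fraction but different numbers differed more than that, with SDs of 0.29 to 0.40 over genes. In pair 1, 77 genes (0.705%) differed by more than 1, of which 71 were lower in SP and 72 had the opposite direction in pair 2. In pair 2, 22 genes (0.202%) did so, of which 19 ran the opposite way in pair 1 and 20 the same way in pair 3. In pair 3 there were 0 such genes.

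**Figure D1:**
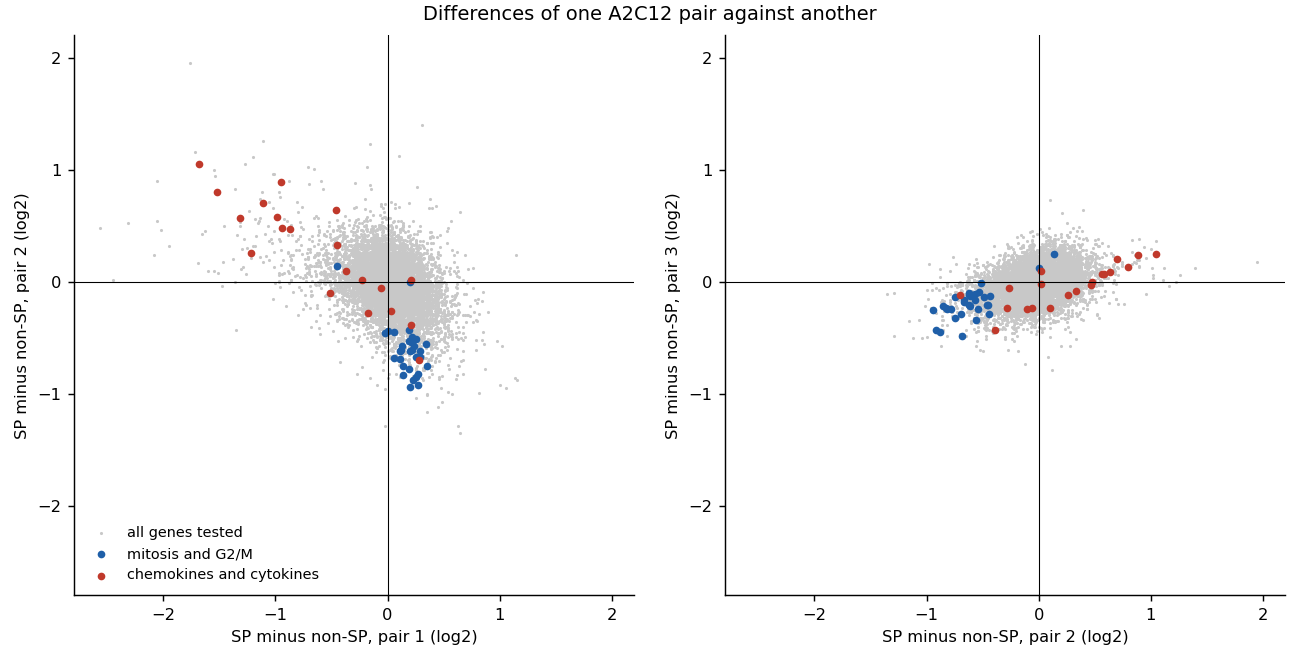
SP minus non-SP differences (log2) of 10916 genes, pair 1 against pair 2 on the left and pair 2 against pair 3 on the right; each point is a gene, with the 31 mitosis genes in blue and the 20 chemokine and cytokine genes in red. The left cloud slopes down (r = -0.40), with red points at the upper left and blue ones at the lower right, and the right cloud slopes up (r = 0.36).

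The array of SP cells number 1 stood apart in most control transcripts but not in all. Its signal at the 3' end of Actb exceeded that at the 5' end by 0.73, against 0.21 to 0.40 on the other 5 arrays, and the same difference for Gapdh was 0.23 against -0.03 to 0.11. For the bacterial spike-in dap it was 2.87 against 1.57 to 2.26. For the spike-ins phe and thr it was 1.75 against 1.25 to 1.37 and 2.23 against 1.43 to 1.75. For Pcx it was 1.09 against 0.88 to 0.99. For Tfrc it was 2.68 on SP 1 and 2.43 to 2.70 on the others, and for the spike-in lys 0.99 and 0.44 to 1.19, so SP 1 lay within the range of the other arrays there. The differences of Actb, Gapdh, Pcx, dap, phe and thr move with the opposite direction of pair 1, and their part in it was not tested. The non-SP and SP arrays of every number were most like each other among the 6 (r = 0.990, 0.991 and 0.997 for numbers 1, 2 and 3).

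The genes that swung between pairs 1 and 2 included secreted inflammatory signals and matrix-degrading enzymes. Chemokines attract leukocytes through receptors on their surface, and many of them share NF-kB and AP-1 motifs in their promoters, as do the matrix metalloproteinases. The promoters of Il6 and Mmp13 are shown because both genes were among those that reversed most between the pairs, and that of Ube2c stands for the mitosis genes described after them. The sequences run 5′ to 3′ on the gene's strand from 250 bases before the start to 50 after it, from RefSeq (GRCm38.p6). Il6 lies at chr5:30012864-30013163, Mmp13 at chr9:7272264-7272563 and Ube2c at chr2:164769679-164769978, all on the + strand. Capitals mark the NF-kB motif in Il6, the AP-1 motif TGANTCA in Mmp13 and the cell cycle homology region (CHR) TTTGAA, on the reverse strand, in Ube2c.
Il6: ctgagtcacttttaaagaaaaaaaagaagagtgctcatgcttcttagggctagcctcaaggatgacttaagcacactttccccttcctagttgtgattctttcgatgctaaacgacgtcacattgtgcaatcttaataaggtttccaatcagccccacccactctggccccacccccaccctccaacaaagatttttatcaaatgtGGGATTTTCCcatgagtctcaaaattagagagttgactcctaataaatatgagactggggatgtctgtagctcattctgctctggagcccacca
Mmp13: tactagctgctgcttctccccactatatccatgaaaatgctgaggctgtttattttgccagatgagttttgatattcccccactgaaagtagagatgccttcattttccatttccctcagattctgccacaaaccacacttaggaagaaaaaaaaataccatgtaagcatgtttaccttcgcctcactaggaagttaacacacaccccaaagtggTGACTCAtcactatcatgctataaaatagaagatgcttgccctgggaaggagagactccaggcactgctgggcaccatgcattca
Ube2c: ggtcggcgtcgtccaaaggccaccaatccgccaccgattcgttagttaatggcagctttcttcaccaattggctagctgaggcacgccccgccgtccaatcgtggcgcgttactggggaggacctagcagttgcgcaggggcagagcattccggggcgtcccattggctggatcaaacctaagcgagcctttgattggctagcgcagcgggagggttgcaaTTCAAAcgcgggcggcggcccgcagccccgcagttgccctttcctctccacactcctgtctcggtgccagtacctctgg

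The marked motif begins at position -44 in Il6, -35 in Mmp13 and -29 in Ube2c, and it did not overlap a match of the other motifs searched. On both strands, the NF-kB motif was found in 7 of 18 promoters of the chemokine and cytokine list (38.9%) and in 4.51% of all 32851 promoters in the table, and TGANTCA in 4 of 18 (22.2%) against 7.81%. TTTGAA was present in 23 of 28 promoters of the mitosis list (82.1%) and in 17.9% of all promoters, and CCAAT in 22 of 28 (78.6%) and 37.4%. The Ube2c promoter holds 6 matches of CCAAT, the box bound by NF-Y. TGANTCA was found in 0 of the 28 mitosis promoters, and the NF-kB motif in 2 of 28. For 27 of the 31 mitosis genes and 17 of the 20 chemokine and cytokine genes the table held a promoter. A match is a match of letters only.

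Il6, an inflammatory cytokine that acts through gp130 and STAT3, had signals of 10.46, 10.00 and 8.51 in the non-SP arrays 1 to 3 and 8.78, 11.05 and 8.76 in the SP arrays. Its pair differences were -1.68, 1.05 and 0.25, lower in SP cells of pair 1 and higher in those of the other pairs, and the groups overlapped. Its mean difference was -0.13 (SE 0.48, n = 3 pairs; unadjusted p = 0.80 in limma's paired fit). Mmp13, a collagenase that cuts fibrillar collagen, had 8.42, 7.03 and 5.05 in non-SP and 6.66, 8.98 and 5.22 in SP cells. Non-SP 1 and SP 2 were the high arrays for both genes, and both arrays of number 3 were low. The stromelysin Mmp10 had the same order, with 8.27, 8.03 and 6.60 against 7.16, 9.29 and 6.66.

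Of the 28 chemokine and cytokine genes, 20 passed the filter, and their median difference was -0.49 in pair 1, 0.30 in pair 2 and -0.02 in pair 3. The median of all genes was 0.03, -0.02 and -0.01 in the same pairs. In pair 1, 16 of the 20 were lower in SP cells, against 44.5% of all genes, and in pair 2, 14 were higher, against 44.9%. Cxcl1, a neutrophil chemokine, had 11.89, 12.13 and 11.29 in non-SP and 10.78, 12.83 and 11.49 in SP cells. Cxcl2, its near relative, had 7.47, 7.54 and 6.24 in non-SP and 5.96, 8.34 and 6.37 in SP cells. The monocyte chemokine Ccl2 had 12.88, 13.09 and 12.52 in non-SP and 11.94, 13.57 and 12.52 in SP cells. SP 1 was the lowest and SP 2 the highest of the 6 arrays for each of these 3 chemokines. Ptgs2, the inducible cyclooxygenase that makes prostaglandin precursors, had 11.43, 11.40 and 9.63 in non-SP and 10.47, 12.30 and 9.87 in SP cells, so that its pair differences were -0.95, 0.89 and 0.24. Of the 20 members, 3 were lower in SP cells in 3 of 3 pairs, against 12.9% of all genes. They were Lif, a cytokine of the Il6 family, Cxcl10, an interferon-induced chemokine, and Cx3cl1, the membrane-bound chemokine. Lif had 9.22, 9.91 and 9.52 in non-SP and 9.06, 9.63 and 9.29 in SP cells, a mean difference of -0.23 (SE 0.08; unadjusted p = 0.0265). Cxcl12, the ligand of Cxcr4, ran the other way, with pair differences of 0.28, -0.70 and -0.12.

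**Figure D2:**
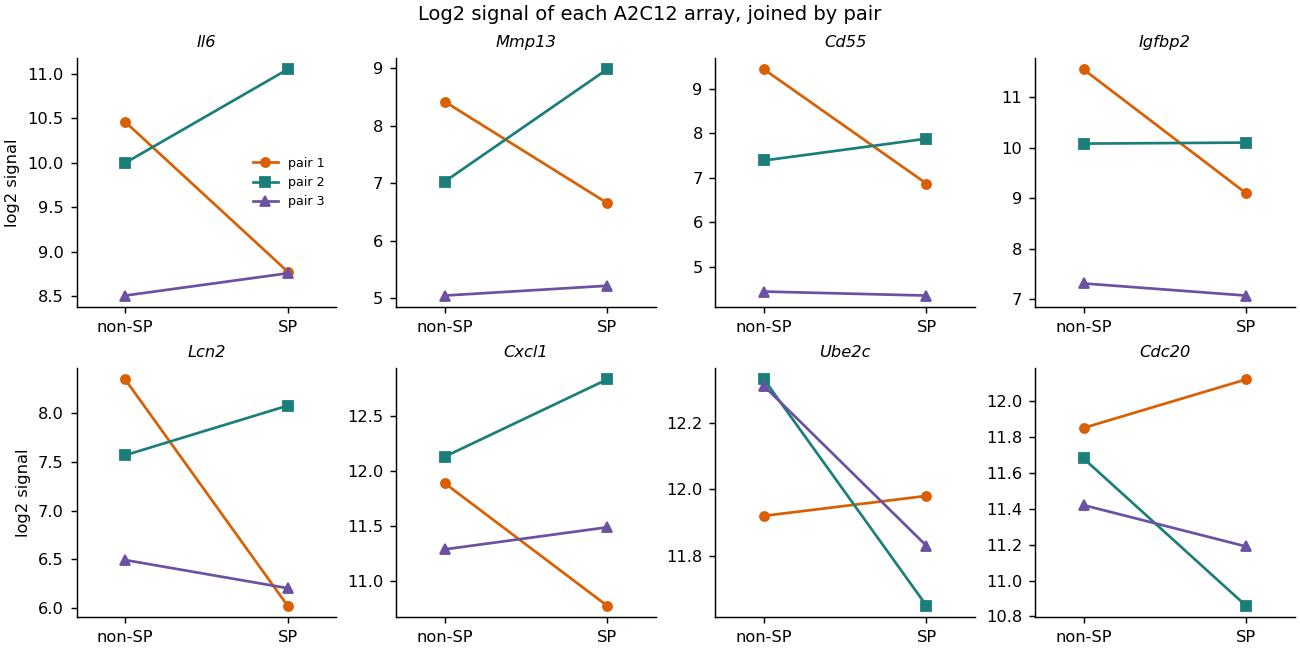
Log2 signal of 8 genes on each of the 6 arrays, non-SP on the left and SP on the right of each panel, with a line for each pair. For Il6, Mmp13, Cd55, Lcn2 and Cxcl1 the line of pair 1 goes down and that of pair 2 goes up; for Cdc20 pair 1 goes up and pairs 2 and 3 go down.

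The largest differences of pair 1 were in genes whose level also differed between the replicate numbers. Cd55, a membrane protein that shields cells from complement, had 9.44, 7.39 and 4.44 in non-SP and 6.87, 7.88 and 4.35 in SP cells. Its 3 probe sets gave -2.57, -2.55 and -2.58 in pair 1, so the pair 1 difference did not rest on a single probe set. Igfbp2, a binding protein of the insulin-like growth factors, had 11.55, 10.08 and 7.31 in non-SP and 9.10, 10.10 and 7.07 in SP cells. Its mean difference of -0.89 was the largest of all genes, with an SE of 0.46 and an unadjusted p of 0.103 in limma's paired fit. Lcn2, an iron-carrier-binding protein induced in inflammation, had 8.35, 7.57 and 6.49 in non-SP and 6.02, 8.08 and 6.20 in SP cells. In all 3 genes the non-SP array of number 1 was the highest and both arrays of number 3 were low. Susd1 was the remaining gene of the 4 largest decreases, at 8.46 and 6.38 in pair 1. The largest increases of pair 1 were in Itgb8, an integrin chain that activates TGF-beta, from 6.25 to 7.41, Tnfrsf11b, the decoy receptor osteoprotegerin, from 7.27 to 8.42, Naalad2 from 7.0 to 8.13 and Gask1b from 7.75 to 8.81. Of these, Tnfrsf11b was higher in SP cells in 3 of 3 pairs, with a mean difference of 0.56 (SE 0.19; unadjusted p = 0.026).

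In pair 2 the largest increases were in Mmp13, Car6, Mmp10 and Prg4. Car6, a secreted carbonic anhydrase, had 6.37, 6.76 and 6.54 in non-SP and 6.68, 8.15 and 6.66 in SP cells, so SP 2 alone stood far above the rest. Prg4, the lubricin of joint surfaces, had 9.79, 8.35 and 7.84 in non-SP and 8.07, 9.50 and 7.79 in SP cells, the swing seen for Mmp13. The largest decreases of pair 2 were in Rab40b, Hypk, Depdc1a and Mxd3. Hypk, a chaperone partner of the N-terminal acetyltransferase NatA, had 6.61, 6.84 and 7.05 in non-SP and 6.59, 5.55 and 6.57 in SP cells, and its groups did not overlap. Depdc1a, a gene of mitotic cells, had 7.92, 7.53 and 7.17 in non-SP and 8.56, 6.24 and 7.07 in SP cells. In pair 3 no difference reached 1, and the largest were in Ddx23, Mybl1, Gnal and Tle5 downwards and Zfp185, Syndig1, Tspan8 and Itgb2l upwards. Tle5, a short Groucho-type co-repressor, had 9.28, 9.82 and 10.05 in non-SP and 9.23, 9.30 and 9.44 in SP cells, lower in 3 of 3 pairs (mean difference -0.39, SE 0.13; unadjusted p = 0.0204). Itgb2l, an integrin beta chain, had 6.25, 6.22 and 5.80 in non-SP and 6.35, 6.47 and 6.32 in SP cells, with all SP arrays above all non-SP arrays.

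Most genes of mitosis had a common direction within each pair, higher in SP cells in pair 1 and lower in pairs 2 and 3. The list holds kinases, motor proteins and checkpoint proteins that build the spindle and part the chromosomes, most of them made in G2 and mitosis under the CHR and CCAAT motifs of their promoters. All 31 genes measured passed the filter, and their median difference was 0.20 in pair 1, -0.62 in pair 2 and -0.21 in pair 3. In pair 1, 28 of 31 were higher in SP cells, against 54.4% of all genes. In pair 2, 30 were lower, against 54.2%, and in pair 3, 29 were lower, against 52.4%. Over the 3 pairs 30 of 31 had a mean below 0, against 52.4% of all genes, but only Aurka and Cdk1 were lower in 3 of 3 pairs. No member passed the adjusted threshold, and 2 of 31 had an unadjusted p under 0.05, against 3.33% of all genes.

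Ube2c, the E2 enzyme of the anaphase-promoting complex, had 11.92, 12.33 and 12.31 in non-SP and 11.98, 11.65 and 11.83 in SP cells (mean difference -0.37, SE 0.14; unadjusted p = 0.0374). Cdk1, the kinase that drives entry into mitosis, had 11.86, 11.93 and 11.65 in non-SP and 11.85, 11.49 and 11.35 in SP cells (mean difference -0.25, SE 0.09; unadjusted p = 0.0374). Both genes were nearly equal within pair 1 and lower in SP cells in pairs 2 and 3, and in both the groups overlapped. Cdc20, the activator of the anaphase-promoting complex, had 11.85, 11.68 and 11.42 in non-SP and 12.12, 10.86 and 11.19 in SP cells. Mki67, the proliferation antigen Ki-67, had 11.29, 11.20 and 11.19 in non-SP and 11.50, 10.66 and 10.95 in SP cells. Nusap1, which binds spindle microtubules, had 10.33, 10.38 and 10.33 in non-SP and 10.60, 9.46 and 9.90 in SP cells. For these 3 genes SP 1 was the highest of the 6 arrays and SP 2 the lowest. The 1 member with a mean above 0 was Pttg1, the securin that holds back separase, with pair differences of 0.20, 0.00 and 0.12. Ccnf, the cyclin of the SCF ubiquitin ligase, had the opposite direction to most members in each pair, with -0.45, 0.14 and 0.25 and a mean of -0.02. The mean level of the list was 10.35, 10.38 and 10.23 in non-SP and 10.52, 9.77 and 10.04 in SP cells, so the SP arrays spread wider than the non-SP arrays.

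**Figure D3:**
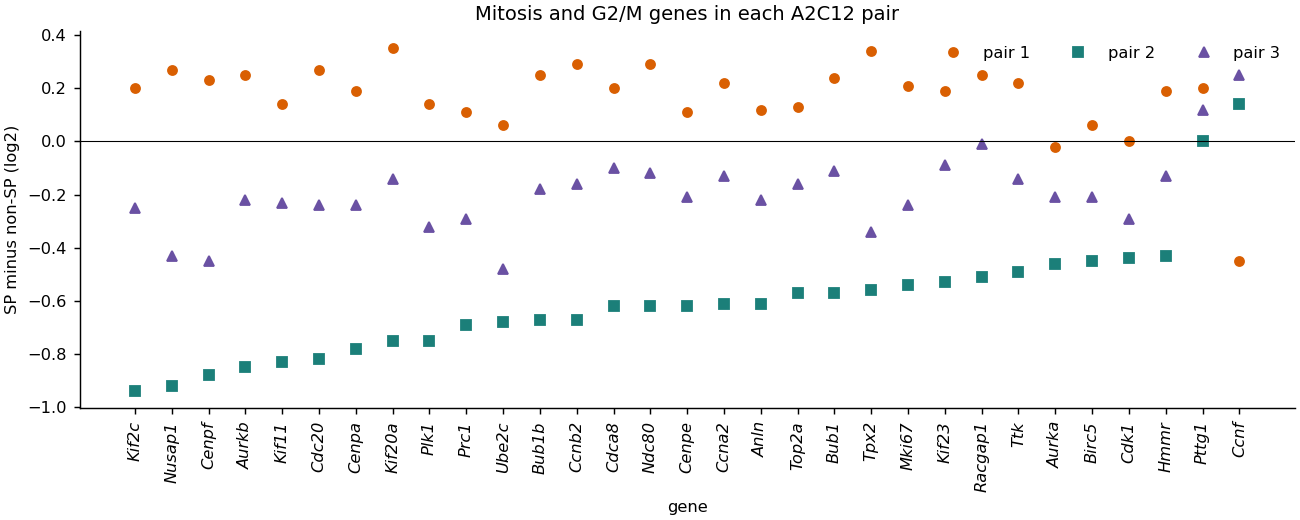
SP minus non-SP difference (log2) of the 31 mitosis and G2/M genes in each pair, ordered by pair 2. Circles of pair 1 lie above 0 for 28 genes, squares of pair 2 below 0 for 30 and triangles of pair 3 below 0 for 29.

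Without the pair of number 1, limma called 90 of 10916 genes (0.824%) at an adjusted p under 0.05 on 1 residual degree of freedom, 23 higher and 67 lower in SP cells. Of the 90, 75 had the opposite direction in pair 1. Among all genes, 36.5% had the same direction in pairs 1 and 2, and 50.4% in pairs 1 and 3. The 90 were picked with pair 1 left out, and no gene passed with it in. Their opposite direction in pair 1 thus follows in part from the choice. The 90 included 16 of the 31 mitosis genes, all lower, and Ube2c had the smallest p (difference over pairs 2 and 3 -0.58, SE 0.07; adjusted p = 0.0014). Foxm1, a transcription factor of the G2 and mitosis genes, was lower too, with -0.85 in pair 2 and -0.34 in pair 3 against 0.27 in pair 1. The 23 genes called higher included Tnfaip3 and Nfkbia, both inhibitors of NF-kB that are themselves its targets, Saa3, an acute-phase protein, and Ptx3, a secreted pattern recognition protein. Tnfaip3 had pair differences of -1.27, 1.05 and 0.36, Saa3 of -1.55, 1.0 and 0.29, and Ptx3 of -1.36, 0.83 and 0.27. Hspa5, the chaperone BiP, was called higher with 0.33 and 0.18 and a pair 1 difference of 0.00. Of the 10 higher and 10 lower genes with the smallest p among those of 1 direction in 3 pairs, Lgals9 was called as well. Cdk1, Tle5 and Hypk, also lower in SP cells in all 3 pairs, were called too. Leaving out the pair of number 2 or of number 3 left 0 calls in limma's fit.

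DNA replication genes were lower in SP cells of pair 2 but not in most cases in pairs 1 and 3. Of 28 members above the filter, 24 had a mean below 0, against 52.4% of all genes, with medians of 0.09, -0.33 and 0.01 in pairs 1 to 3. In pair 1, 20 were higher and 8 lower, in pair 2 all 28 were lower, and in pair 3, 17 were higher and 10 lower. Of all genes, 54.4% were higher in pair 1, 54.2% lower in pair 2 and 46.1% higher in pair 3. Rfc3, a subunit of the clamp loader, had 9.11, 9.35 and 9.09 in non-SP and 8.79, 9.02 and 8.78 in SP cells. All its SP arrays lay below all its non-SP arrays, with a mean difference of -0.32 (SE 0.08; unadjusted p = 0.00638). Its other probe set, nearly as bright, gave -0.06, -0.46 and -0.15 in pairs 1 to 3, so it was near level in pair 1. Tk1, the S-phase thymidine kinase, had 11.22, 11.28 and 10.99 in non-SP and 11.18, 10.74 and 10.81 in SP cells, lower in 3 of 3 pairs with overlapping groups. Genes of cell cycle arrest were split, 12 higher and 12 lower of 24. In 3 of 3 pairs 2 were higher and 4 lower, against 12.1% and 12.9% of all genes. Txnip, a thioredoxin-binding arrestin, was among the higher ones, with 10.37, 11.08 and 10.38 in non-SP and 10.99, 11.36 and 10.41 in SP cells, and Lin54, a subunit of the complex that binds CHR motifs, among the lower ones, with a mean difference of -0.22.

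Collagen chains and Myc targets also turned between pairs. Of 21 collagen genes, 18 had a mean below 0, against 52.4% of all genes, with medians of 0.08, -0.28 and -0.12 in pairs 1 to 3. Col1a1, the main chain of fibrillar collagen, had 11.17, 11.56 and 12.19 in non-SP and 11.29, 11.31 and 11.84 in SP cells. Of 25 Myc targets of ribosome biogenesis, 23 had a mean above 0, against 47.6% of all genes, with medians of -0.10, 0.29 and 0.07. In pair 3, 19 of the 25 were higher, against 46.1% of all genes. Polr1b, a subunit of RNA polymerase I, had 8.88, 8.86 and 8.23 in non-SP and 8.98, 9.15 and 8.50 in SP cells, higher in 3 of 3 pairs (mean difference 0.22, SE 0.09; unadjusted p = 0.0433). Myc itself had 10.73, 10.49 and 10.16 in non-SP and 10.42, 10.48 and 10.20 in SP cells, so the transcript was near level in pairs 2 and 3 (mean difference -0.09, SE 0.09). Whether this probe set also reads the c-myc transgene is not given in the sources used here.

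**Figure D4:**
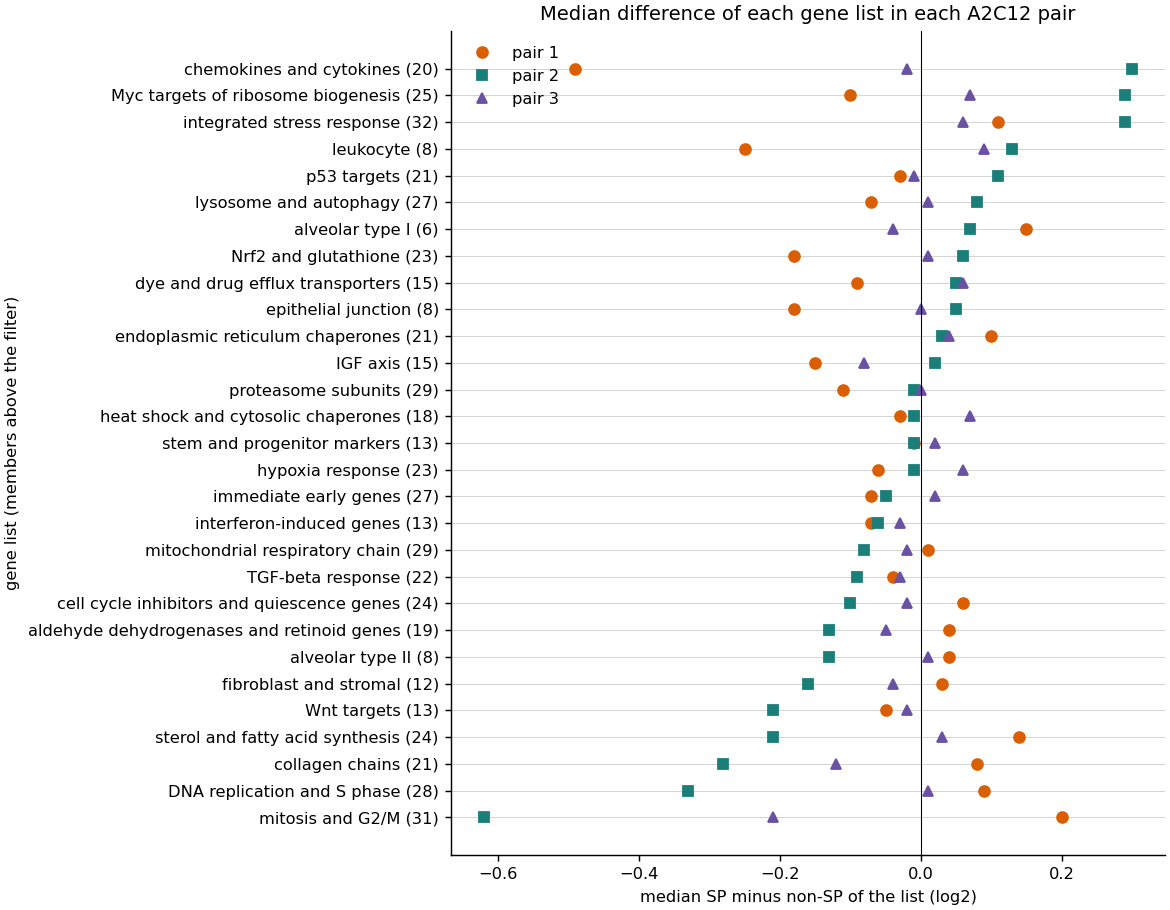
Median SP minus non-SP difference (log2) of each of 29 gene lists with at least 4 members above the filter, 1 marker per pair, ordered by pair 2. Chemokines and cytokines lie at -0.49 in pair 1 and 0.30 in pair 2, mitosis genes at 0.20 and -0.62, and the integrated stress response lies above 0 in all 3 pairs.

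The median of the integrated stress response genes was above 0 in every pair. This response follows phosphorylation of eIF2-alpha, which lets the factor ATF4 be made and turn on amino acid synthesis, amino acid transport and tRNA charging. Of its 32 genes, 26 had a mean above 0, against 47.6% of all genes, with medians of 0.11, 0.29 and 0.06 in pairs 1 to 3. In those pairs 21, 29 and 18 of the 32 were higher, against 54.4%, 44.9% and 46.1% of all genes. The median of their mean differences was 0.12, and 0.05 without the pair of number 2. In 3 of 3 pairs 12 were higher, which 12.1% of all genes were. No member passed the adjusted threshold, and 8 of 32 had an unadjusted p under 0.05, against 3.33% of all genes. Asns, the asparagine synthetase, had 11.67, 11.95 and 11.69 in non-SP and 11.91, 12.38 and 11.81 in SP cells (mean difference 0.27, SE 0.07; unadjusted p = 0.0112). Its other probe set gave 0.21. Trib3, a pseudokinase that dampens ATF4, had 10.36, 10.77 and 10.36 in non-SP and 10.80, 11.45 and 10.47 in SP cells (mean difference 0.40, SE 0.12; unadjusted p = 0.0133). In both genes SP was above non-SP in each pair while the groups overlapped. Ddit3, the factor CHOP, had 11.63, 12.18 and 11.74 in non-SP and 11.84, 12.60 and 11.84 in SP cells. Psat1, of serine synthesis, had 12.23, 12.25 and 12.01 in non-SP and 12.36, 12.43 and 12.25 in SP cells. Nars, which charges the asparagine tRNA, had 12.17, 12.19 and 12.28 in non-SP and 12.36, 12.48 and 12.39 in SP cells, and here the groups did not overlap. The transcript of Atf4 itself had 13.16, 13.34 and 13.11 against 13.08, 13.41 and 13.07.

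Chaperones of the endoplasmic reticulum also had pair medians above 0, at 0.10, 0.03 and 0.04. Of 21 members, 17 had a mean above 0, against 47.6% of all genes, and 8 were higher in 3 of 3 pairs, against 12.1%. In pairs 1 to 3, 16, 15 and 12 of them were higher, against 54.4%, 44.9% and 46.1% of all genes. The median of their mean differences was 0.05, and 0.09 without the pair of number 3. Hspa5 had 13.96, 13.89 and 13.58 in non-SP and 13.96, 14.21 and 13.76 in SP cells (mean difference 0.17, SE 0.06; unadjusted p = 0.0366). Pdia4, a protein disulfide isomerase, had 10.67, 10.43 and 10.23 in non-SP and 10.94, 10.64 and 10.30 in SP cells (mean difference 0.19, SE 0.07; unadjusted p = 0.0477). Of 18 cytosolic chaperones, 10 were above and 8 below 0, 4 were higher and 3 lower in 3 of 3 pairs. The heat-induced Hspa1a was among the lower ones, with 8.35, 7.78 and 8.53 in non-SP and 7.92, 7.50 and 8.38 in SP cells.

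The differences that repeated best across the 3 pairs were small. Lgals9, a galectin that binds sugar chains on T cells and other cells, had the smallest p of all genes. Its signal was 10.51, 11.45 and 11.29 in non-SP and 10.06, 11.09 and 10.87 in SP cells, with pair differences of -0.45, -0.35 and -0.42 (mean difference -0.41, SE 0.06; unadjusted p = 0.000789, adjusted p = 0.972 in limma's paired fit). Cd99, a membrane glycoprotein of cell adhesion, had 10.03, 10.74 and 10.83 in non-SP and 9.58, 10.45 and 10.45 in SP cells, and its 3 probe sets gave -0.38, -0.40 and -0.35. Both genes kept SP below non-SP within each pair, although array levels of the pairs overlapped. Hdac7, a class IIa histone deacetylase, had 9.34, 9.72 and 9.54 in non-SP and 9.0, 9.34 and 9.18 in SP cells, and its pair differences were -0.34, -0.39 and -0.35. Nr4a1, an orphan nuclear receptor and immediate early gene, had 11.70, 11.69 and 11.48 in non-SP and 11.29, 11.37 and 11.29 in SP cells, with no overlap. Nrm, the nuclear envelope protein nurim, had 9.21, 9.09 and 8.97 in non-SP and 8.86, 8.69 and 8.68 in SP cells, with no overlap either. Capns1, the small calpain subunit, and Psmb7, a catalytic proteasome subunit, had mean differences of -0.26 (SE 0.06) and -0.34 (SE 0.08). Mlf2, Taok3 and Gtf3c2 made up the 10, with mean differences of -0.36, -0.47 and -0.38. For Taok3, a stress-activated kinase, and Gtf3c2, a subunit of TFIIIC, other probe sets gave values from -0.38 to 0.15, so these differences depended on the probe set.

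Among the 10 higher genes, Hspa9, the mitochondrial chaperone mortalin, had 11.90, 11.83 and 11.80 in non-SP and 12.12, 12.16 and 12 in SP cells (mean difference 0.25, SE 0.06; unadjusted p = 0.00427). The SP arrays all lay above the non-SP arrays, and its 2 other bright probe sets gave 0.22 and 0.26. Nampt, which makes the NAD precursor nicotinamide mononucleotide, had 8.66, 9.06 and 8.57 in non-SP and 9.11, 9.31 and 8.98 in SP cells (mean difference 0.37, SE 0.09), while another probe set gave 0.11. Gdpd1, a lysophospholipase D, had 8.26, 8.39 and 8.73 in non-SP and 8.80, 8.87 and 8.96 in SP cells, with no overlap. Lars, which charges the leucine tRNA, had 10.73, 10.87 and 11.03 in non-SP and 11.18, 11.09 and 11.27 in SP cells, also with no overlap. Gspt1, the translation termination factor eRF3a, Tcea1, an elongation factor of RNA polymerase II, Serp1, a protein of the endoplasmic reticulum translocon, and Chordc1, a partner of Hsp90, had mean differences of 0.24, 0.26, 0.22 and 0.25. Ldlrad3, a receptor of the LDL receptor family, and Prkg2, a cGMP-dependent kinase, completed the 10 with 0.32 and 0.47. None of the 20 genes had an adjusted p below 0.972, and their intervals do not allow for their having been picked as the smallest p.

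**Figure D5:**
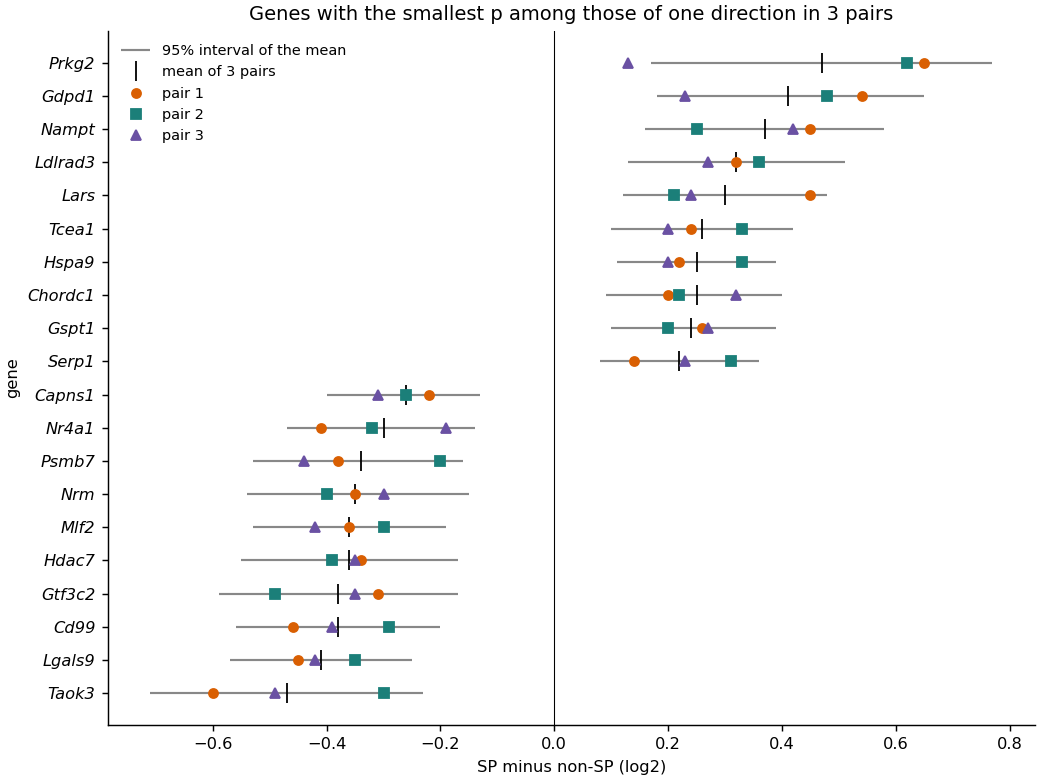
SP minus non-SP difference (log2) of the 10 higher and 10 lower genes with the smallest p among genes of 1 direction in 3 pairs; markers are the pairs, the tick is the mean and the line its 95% interval from limma. The mean differences run from -0.47 for Taok3 to 0.47 for Prkg2.

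None of the pumps best known for the side population passed the threshold. Abcg2 had 8.58, 8.50 and 8.53 in non-SP and 8.85, 8.32 and 8.61 in SP cells, higher in pairs 1 and 3 and lower in pair 2 (mean difference 0.06, SE 0.11). Its 95% interval ran from -0.21 to 0.33. Abcb1a had 7.44, 7.40 and 7.83 in non-SP and 7.28, 8.03 and 7.95 in SP cells (mean difference 0.20, SE 0.16, interval -0.19 to 0.58). SP 2 and SP 3 were its highest arrays, non-SP 3 came next and SP 1 was the lowest, so the groups overlapped. Abcb1b had 9.66, 9.15 and 8.96 in non-SP and 9.28, 9.48 and 9.14 in SP cells (mean difference 0.04, SE 0.15, interval -0.32 to 0.40). Abcc1, another drug exporter, had 11.64, 11.62 and 11.41 against 11.48, 11.68 and 11.41. In none of the 4 genes did the groups separate. Of the 15 transporters above the filter, 8 had a mean above and 7 below 0, and 1 of them, Abca5, had all SP arrays above all non-SP arrays, as 1.17% of all genes did, at 6.57, 6.97 and 6.93 in non-SP and 7.03, 7.07 and 7.04 in SP cells. The other, dimmer probe set of Abca5 had a mean difference of -0.16. Abcc4, an exporter of cyclic nucleotides and prostaglandins, swung with the inflammatory genes, with pair differences of -0.66, 1.01 and 0.12. Of 13 stem and progenitor markers, 8 were above and 5 below 0. In 3 of 3 pairs 2 were higher and 2 lower, against 12.1% and 12.9% of all genes. The higher ones were the integrin chains Itgb1, by 0.17 (SE 0.06; unadjusted p = 0.0339), and Itga6, by 0.17 (unadjusted p = 0.0911). The lower ones were Cd34, a sialomucin of progenitor and endothelial cells, with pair differences of -0.15, -0.26 and -0.01, and Eng, a co-receptor of TGF-beta ligands, with -0.15, -0.01 and -0.27.

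Genes of growth factor signalling and detoxification were mixed in direction. For the counts that follow, 52.4% of all genes had a mean below 0, 12.1% were higher and 12.9% lower in 3 of 3 pairs. Tgfb3, a TGF-beta ligand, had 9.04, 8.85 and 8.33 in non-SP and 8.61, 8.52 and 8.07 in SP cells (mean difference -0.34, SE 0.08; unadjusted p = 0.00694). Id1, an inhibitor of bHLH factors induced by BMP and TGF-beta signals, had 12.40, 12.35 and 12.01 in non-SP and 12.19, 12.18 and 11.87 in SP cells. Of the 22 genes of the TGF-beta response, 8 were lower in 3 of 3 pairs, which 12.9% of all genes were, 1 was higher in 3 of 3, and 16 had a mean below 0. Of 19 aldehyde dehydrogenase and retinoid genes, 7 had a mean above and 12 below 0, with 2 higher and 1 lower in 3 of 3 pairs. Aldh3a1, an aldehyde dehydrogenase of the airway and cornea, had 12.30, 11.96 and 11.63 in non-SP and 11.63, 11.83 and 11.43 in SP cells (mean difference -0.34, SE 0.11; unadjusted p = 0.0238). The higher ones were the mitochondrial enzymes Aldh1l2, with pair differences of 0.56, 0.12 and 0.03, and Aldh4a1, with 0.26, 0.11 and 0.11. Of 23 Nrf2 and glutathione genes, 9 had a mean above and 14 below 0, with medians of -0.18, 0.06 and 0.01 in pairs 1 to 3, and 4 were lower and 0 higher in 3 of 3 pairs. The glutathione transferases Gstm1 and Gstm2 were lower in 3 of 3 pairs, by means of -0.20 and -0.19, and their probe sets may share targets among these close paralogs. Of 15 genes of the IGF axis, 2 were higher and 3 lower in 3 of 3 pairs. Igf1, an insulin-like growth factor, was among the lower ones, with 9.84, 9.36 and 8.83 in non-SP and 8.93, 9.14 and 8.68 in SP cells, with most of the difference in pair 1, and the higher ones were Igfbp5 and Irs1, with mean differences of 0.14 and 0.17.

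Of the remaining lists, the proteasome had 20 of 29 members below 0 at a median of -0.03 and the respiratory chain 21 of 29 at -0.03, close to the -0.01 of all genes. Interferon-induced genes had 11 of 13 below 0 at -0.08. Of all genes, 52.4% had a mean below 0. Immediate early genes had 17 of 27 below 0, with 2 higher and 4 lower in 3 of 3 pairs, against 12.1% and 12.9% of all genes. Junb, an AP-1 subunit, was among the lower ones, with 10.14, 10.77 and 10.39 in non-SP and 9.80, 10.64 and 10.21 in SP cells, and Klf6, a zinc finger factor, among the higher ones, with a mean difference of 0.15, while its other probe sets gave -0.32 to 0.13. Of 27 lysosome and autophagy genes, 15 were above and 12 below 0, and the groups did not overlap in 1 gene of each direction, against 1.17% and 1.57% of all genes. Lamp1, a lysosomal membrane protein, had all SP arrays above all non-SP arrays, with 12.25, 12.26 and 12.44 in non-SP and 12.45, 12.46 and 12.50 in SP cells. Ulk1, the kinase that starts autophagy, had all SP arrays below, with 8.45, 8.58 and 8.61 in non-SP and 8.22, 8.39 and 8.34 in SP cells (unadjusted p = 0.0306), while a dimmer probe set gave 0.06. Srebf2, the factor that turns on sterol synthesis, also had all SP arrays below, with 10.26, 10.56 and 10.36 in non-SP and 10.06, 10.21 and 10.20 in SP cells. Among markers of other cells, 8 leukocyte genes had medians of -0.25, 0.13 and 0.09 in pairs 1 to 3 and 12 stromal genes of 0.03, -0.16 and -0.04. The mean signal of all 13 leukocyte markers with a probe set ran from 6.18 to 6.45 in non-SP and from 6.21 to 6.51 in SP arrays. The part of leukocyte markers in the inflammatory differences was not tested. Dcn, a stromal proteoglycan, swung with the inflammatory genes, with 11.06, 9.21 and 8.04 in non-SP and 9.0, 9.76 and 8.01 in SP cells.

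A2C12 was then set against the lines betaD5 and cRAF_cMYC, which come from tumours of the same kind of double transgenic mice and gave 6 further SP and non-SP pairs. In array correlations over all genes the arrays of betaD5 number 1 were more like the cRAF_cMYC arrays (median r 0.978 and 0.982) than the other betaD5 arrays (0.925 and 0.920), and those of cRAF_cMYC number 3 more like betaD5 (0.980 and 0.980) than cRAF_cMYC (0.933 and 0.930). The 6 pairs were therefore pooled in the fit, and the A2C12 arrays were each most like another A2C12 array. In limma on the 9 pair differences, 0 of 10916 genes (0.0%) differed at an adjusted p under 0.05, with a smallest adjusted p of 0.711, and 687 (6.29%) had an unadjusted p under 0.05, 497 of them lower in A2C12 (4.55%). The fit takes each pair as a replicate, and A2C12 is a single line. Its standard errors and p-values therefore measure the spread between pairs and not between lines.

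The 6 genes with the smallest p in that comparison were all lower in A2C12. Kdm3a, a histone demethylase induced by hypoxia, differed by -0.62, 0.24 and 0.11 in the A2C12 pairs and by 0.62 to 1.12, median 0.90, in the other 6. The gap was -0.97 (SE 0.19; unadjusted p = 0.000243, adjusted p = 0.711) and -0.98 without the pairs betaD5 1 and cRAF_cMYC 3. Pfkfb3, which makes the activator of phosphofructokinase, differed by -0.71, 0.13 and -0.03 in A2C12 and by 0.50 to 0.95, median 0.72, elsewhere (gap -0.95, SE 0.18; adjusted p = 0.711; -0.90 without those pairs). For both genes the 3 A2C12 pairs lay below all 6 other pairs, but both were picked for their small p in this same comparison. The share of all genes with such a separation was not counted. Ddit4, an inhibitor of mTORC1, had a gap of -0.43 (-0.40 without those pairs), and its signal in A2C12 was 13.07, 13.11 and 13.00 in non-SP and 12.97, 13.05 and 13.07 in SP cells. Phf12, a subunit of a Sin3 co-repressor complex, Bcor, a Polycomb co-repressor, and Fam214a had gaps of -0.64, -0.56 and -0.66, and -0.60, -0.53 and -0.67 without those pairs. The 23 hypoxia genes had a median of -0.06, -0.01 and 0.06 in the A2C12 pairs and of 0.08 to 0.29 in the other 6, and 9, 11 and 17 of the 23 were higher in SP cells of A2C12, against 54.4%, 44.9% and 46.1% of all genes. In pairs 1 to 3 of betaD5 the counts were 19, 21 and 19, against 48.0%, 55.7% and 55.1% of all genes, and in those of cRAF_cMYC 17, 14 and 20, against 58.9%, 45.9% and 54.6%. The counts of the lines thus overlapped, since A2C12 pair 3 had as many as cRAF_cMYC pair 1 and more than cRAF_cMYC pair 2. Abcg2 was higher in SP cells in 6 of 6 pairs of the other lines, by 0.12 to 0.66, median 0.30, and in A2C12 by 0.28, -0.18 and 0.07; the adjusted p of the gap was 0.782 in limma.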

How the data were processed

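The authors' deposited values are log2 signals of Affymetrix 3' arrays, 1 per probe set and array, made with Affymetrix Expression Console per the submitters' processing notes; its version, summary algorithm and normalization are not given in the sources used here. The deposited table holds 45101 probe sets on 18 arrays with values from 2.28 to 15.28. The 64 control probe sets, the 932 with several gene symbols and the 9160 not named here were left out; 34945 had 1 symbol, 34741 of them matched to current names, giving 18193 genes.

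The 6 A2C12 arrays were fitted with limma 3.58.1 (R 4.3.3): SP against non-SP with the replicate number as a block, eBayes with a trend, 2 residual degrees of freedom, two-sided, Benjamini-Hochberg adjusted over all genes, threshold 0.05. Pairing was checked by correlating deviations from the group means: 0.409, 0.579 and 0.866 for same-numbered arrays and -0.552 to 0.098 for others, so the numbers pair the arrays. The lines were compared by limma on 9 pair differences. The code was tested on simulated data. Promoters were counted on RefSeq's table for GRCm38.p6.

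Members and gene lists were chosen with earlier results of these data known. Genes named are the 10 higher and 10 lower with the smallest p among those of 1 direction in 3 pairs, up to 4 per list with the smallest p, the efflux pumps and Myc, the 6 smallest p between lines, and the 4 largest increases and decreases of each pair, predicted genes passed over. Il6, Cxcl1, Cxcl2, Ccl2, Cxcl12, Cx3cl1, Ptgs2, Cdc20, Mki67, Nusap1, Ccnf, Pttg1, Igfbp5, Irs1, Atf4, Ddit3, Abcc4, the marker genes left out by the filter, and Foxm1, Tnfaip3, Nfkbia, Saa3 and Ptx3 were named after their values were seen.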

Additional observations from a re-analysis of the deposited data

Results flagged for a closer look

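In 4 named genes all 3 A2C12 pairs had 1 direction and all 6 pairs of betaD5 and cRAF_cMYC the other. None passed the adjusted threshold in limma's comparison between lines. Fam214a and Phf12 had been named for their small p in this same comparison. The share of all genes with such a split was not counted.

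Fam214a was lower in SP cells of A2C12 by a mean of -0.27 and higher elsewhere by 0.39, a gap of -0.66 (adjusted p = 0.711). Phf12, the Sin3 complex subunit, had -0.27 and 0.37, a gap of -0.64 (adjusted p = 0.711). Lin54, a subunit of the complex that binds CHR motifs, had -0.22 and 0.47, a gap of -0.69 (adjusted p = 0.716). Grhl2, a transcription factor of epithelial junctions, was higher in SP cells of A2C12 by 0.30 and lower elsewhere by a mean of -0.25, a gap of 0.55 (adjusted p = 0.711). Lin54 was nearly level in A2C12 pair 3, at 8.22 in non-SP and 8.21 in SP cells. Its dimmer probe set was lower in every A2C12 pair. Dimmer probe sets of the other genes did not all keep the direction. In A2C12 pairs 1 to 3 they gave -0.28, 0.04 and -0.05 for Fam214a and -0.05, 0.07 and -0.11 for Phf12. A dimmer Grhl2 probe set gave 0.09, -0.14 and 0.32.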

How the results depend on the processing

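The count of 0 genes past the threshold in the paired fit stayed at 0 under 12 of 13 alternatives and was 90 without the arrays of number 1, a range of 0 to 90 over the leave-one-out fits. Without the replicate block the fit also called 0 genes. The number at an unadjusted p under 0.05 was 363, and 22 with no replicate block, 671 with no filter on dim genes, 193 with the spread pooled over the 3 lines, and 79 to 1630 when a pair was left out. Genes higher in 3 of 3 pairs numbered 2464 with no filter. Genes with all SP arrays above all non-SP arrays numbered 81 with the mean of all probe sets, 226 with no filter and 205 after quantile normalization. The count at an unadjusted p under 0.05 between lines was 1428 with no filter and 428 without A2C12 number 3, in a range of 428 to 782 over the leave-one-out fits. The cause was not tested, except that no filter tests more genes.

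Signs turned with the mean of all probe sets, where Fdps was 0.03, Ccn4 -0.05, Vegfa 0.04, Vim -0.02 and Abcc1 0.07. Signs also turned when a pair was left out. Leaving out numbers 1, 2 and 3 in turn gave a range of -0.02 to 0.37 for Abcb1a, -0.53 to 0.02 for Krt18 and -0.01 to 0.20 for Krt19. The range was -0.20 to 0.01 for Pdgfra, -1.05 to 0.26 for Dcn, -0.05 to 0.18 for Abcg2 and -0.10 to 0.25 for Abcb1b. For Abcc1 it was -0.08 to 0.03 and for Myc -0.16 to 0.01. Genes named only for single pairs or between lines were not in this set, and several of them turned as well. Susd1, with a mean difference of -0.54, had 0.24 and 0.21 in pairs 2 and 3. Cd55, with a mean of -0.73, had 0.48 and -0.09 there, and Lcn2, with -0.70, had 0.52 and -0.29.

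Of the other recomputed values of named genes, 1688 kept their direction and their side of the threshold, and 7 passed it without number 1. Genes named only for single pairs or between lines were not among these. Of those named for single pairs, Tle5, Hypk, Mxd3 and Mmp13 also passed the threshold without number 1. The median of the interferon-induced genes, -0.08, was -0.01 with the filter at 60%, which left 3 of its 13 genes, -0.02 with no filter, -0.05 after quantile normalization, and -0.09 to -0.04 when a pair was left out. That of the endoplasmic reticulum chaperones, 0.05, was 0.09 without number 3. That of the stem and progenitor markers, 0.01, was -0.01 without number 3 and 0.04 with probe sets and filter taken over all 18 arrays. That of the lysosome and autophagy genes, 0.02, was -0.07 without number 2. Lists that turned between pairs shifted further. Without numbers 1, 2 and 3 in turn, the chemokine and cytokine median, -0.13, was 0.10, -0.33 and -0.20. The mitosis median, -0.20, was -0.41, -0.01 and -0.21. Among other lists, DNA replication (-0.06) and collagen (-0.07) turned to 0.06 and 0.04 without number 2.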
